A study of Homo sapiens with 12 samples.

Results

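The genes described here lie side by side on the long arm of human chromosome 1, in band 1q21, and hold the epidermal differentiation complex together with the S100 genes at its ends. They are 33 genes listed by symbol, and all 33 were found in a table of 50868 gene identifiers, through the Ensembl identifier each symbol belongs to. In the GENCODE 29 annotation of GRCh38 they run from S100A10 (ENSG00000197747) to S100A1 (ENSG00000160678), chr1:151982915-153632039, a stretch of 1.65 Mb. The list was drawn up with the remark that many of these genes are present in MKN28 cells and absent in MKN45 cells, so the comparison between the lines is given below as a description, with no p-value for its members and a count of calls from which nothing is read.

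The complex encodes proteins of the cornified envelope, the cross-linked shell under the membrane of keratinocytes at the end of their differentiation. Involucrin (IVL), the small proline-rich proteins (SPRR) and the late cornified envelope proteins (LCE) are joined by transglutaminases, and filaggrin (FLG) and its relatives, the S100-fused proteins, bind keratin filaments or the envelope. The S100 proteins are small calcium-binding proteins of the EF-hand type that act on partners such as annexins inside the cell and, after release, on receptors such as AGER and TLR4. Several of the small proline-rich and S100 genes are also expressed in simple epithelia and their tumours, under stress or squamous change.

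RNA-seq read counts were available for 12 libraries in 4 groups of 3, made from MKN28 and MKN45, both cell lines of human gastric cancer. In MKN28, cells with a lentivirus carrying an siRNA against the zinc-finger gene ZNF165 (genotype ZNF165 knockdown) were set against cells with a control lentivirus (genotype WT). In MKN45, cells with a lentivirus carrying ZNF165 (genotype ZNF165 overexpression) were set against cells with a control lentivirus (genotype WT). All 4 groups thus carry a lentivirus, each line stands for itself alone, and MKN28 is known to be a derivative of the line MKN74. For knockdown replicates 2 and 3 the description field says ZNF166 and ZNF167 where that of replicate 1 says ZNF165, and the genotype field, which gives ZNF165 for all 3, was followed. ZNF165 itself had 74, 40 and 22 counts in knockdown libraries, against 262, 186 and 287 in MKN28 controls. It had 2115, 1977 and 1909 counts in overexpression libraries, against 156, 140 and 277 in MKN45 controls. The ZNF165 counts followed the labels in every library.

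Library totals ran from 12075813 to 19548445 counts, and 0 counts in a library leave room for 0.248 CPM (counts scaled to the library total) in the shallowest and 0.153 CPM in the deepest, from 3 counts and for counting error only. Markers of simple epithelium (EPCAM, CDH1, KRT8, KRT18 and KRT19) were all present, with summed counts of 218225 to 659260 in knockdown, 125722 to 137173 in MKN28 control, 87113 to 139172 in overexpression and 79154 to 138185 in MKN45 control libraries. The 6 markers of stratified squamous keratinocytes summed to 1896 to 3272 counts in knockdown, 612 to 894 in MKN28 control, 862 to 1383 in overexpression and 833 to 1014 in MKN45 control libraries, with TP63 and DSG3 at 0 in knockdown libraries and KRT14 at 0 in MKN45 controls. Fibroblast markers summed to 407 to 784 counts in knockdown, 1662 to 2091 in MKN28 control, 397 to 514 in overexpression and 275 to 309 in MKN45 control libraries, and the 3 endothelial markers to at most 37 counts in any library. Nearly all fibroblast marker counts of MKN28 controls were of COL1A1, at 1756, 1658 and 2090, with COL3A1 and DCN at 0. The knockdown libraries stand apart in the length of the transcripts they hold: the rank correlation of log CPM with transcript length over genes was 0.0562 to 0.131 in them, 0.292 to 0.363 in MKN28 controls, 0.385 to 0.393 in overexpression libraries and 0.239 to 0.349 in MKN45 controls. This matters for the present genes, of which 21 of 33 have under 1500 bases of merged exons (median 1025, range 270 to 12747), and knockdown results are therefore set beside values with the trend over length and GC content removed. No label states that the 3 libraries of a group came from separate cultures, so p-values measure only how these libraries vary, which may be technical variation.

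To show promoters of genes from each class of result (envelope genes at 0 in MKN45 controls, S100 genes higher or lower there, and genes that rose or fell after the knockdown), 250 bases before the RefSeq start of 7 of the genes are printed from the GRCh38.p14 table of RefSeq, 5′ to 3′ on the gene's strand. Capitals mark 3 motifs searched on both strands, which do not overlap in these windows. The site of AP-1, the dimer of FOS and JUN proteins, was searched as TGANTCA. The box bound by the TATA-binding protein was searched as TATAAA. The core bound by grainyhead-like factors was searched as AACCNGTT. The windows are chr1:153001499-153001748 (+) for SPRR3, chr1:152908296-152908545 (+) for IVL, chr1:153357604-153357853 (+) for S100A9, chr1:152325240-152325489 (−) for FLG, chr1:153565845-153566094 (−) for S100A2, chr1:153545807-153546056 (−) for S100A4 and chr1:153616326-153616575 (−) for S100A14.
SPRR3: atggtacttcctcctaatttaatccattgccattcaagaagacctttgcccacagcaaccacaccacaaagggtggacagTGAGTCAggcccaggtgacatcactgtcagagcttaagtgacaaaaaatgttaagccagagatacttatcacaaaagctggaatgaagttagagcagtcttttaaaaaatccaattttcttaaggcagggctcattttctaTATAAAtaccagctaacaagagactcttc
IVL: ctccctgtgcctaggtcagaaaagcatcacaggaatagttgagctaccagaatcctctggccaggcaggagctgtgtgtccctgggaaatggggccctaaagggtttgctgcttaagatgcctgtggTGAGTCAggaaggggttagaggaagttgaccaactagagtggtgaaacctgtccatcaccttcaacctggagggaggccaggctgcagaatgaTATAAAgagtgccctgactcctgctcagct
S100A9: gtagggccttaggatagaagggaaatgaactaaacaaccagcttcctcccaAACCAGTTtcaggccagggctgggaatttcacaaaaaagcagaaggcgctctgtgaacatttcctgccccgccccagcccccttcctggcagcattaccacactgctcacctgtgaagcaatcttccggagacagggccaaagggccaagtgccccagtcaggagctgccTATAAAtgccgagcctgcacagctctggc
FLG: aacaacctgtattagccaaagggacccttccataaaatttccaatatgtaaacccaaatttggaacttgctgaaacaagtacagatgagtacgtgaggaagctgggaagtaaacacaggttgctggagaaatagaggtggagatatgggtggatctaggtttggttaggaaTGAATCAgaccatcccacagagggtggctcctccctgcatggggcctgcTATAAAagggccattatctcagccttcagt
S100A2: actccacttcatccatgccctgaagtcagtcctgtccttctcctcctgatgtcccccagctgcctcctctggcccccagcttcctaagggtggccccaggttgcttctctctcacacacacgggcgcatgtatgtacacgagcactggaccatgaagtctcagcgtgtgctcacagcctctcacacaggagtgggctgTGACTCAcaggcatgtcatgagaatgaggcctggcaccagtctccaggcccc
S100A4: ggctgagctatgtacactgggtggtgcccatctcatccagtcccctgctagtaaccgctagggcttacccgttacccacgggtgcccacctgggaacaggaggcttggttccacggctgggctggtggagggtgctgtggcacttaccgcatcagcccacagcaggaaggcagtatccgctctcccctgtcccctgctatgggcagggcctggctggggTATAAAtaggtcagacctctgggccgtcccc
S100A14: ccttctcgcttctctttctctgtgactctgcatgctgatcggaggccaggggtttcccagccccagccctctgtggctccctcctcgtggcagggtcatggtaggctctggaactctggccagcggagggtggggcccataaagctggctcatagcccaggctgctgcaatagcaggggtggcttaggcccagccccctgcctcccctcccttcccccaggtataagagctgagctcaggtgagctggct
In SPRR3 the AP-1 letters begin 170 bases and the TATA letters 29 bases before the start. The IVL window holds the same pair of motifs at 123 and 30 bases, and the FLG window at 79 and 30 bases. S100A9 has TATA letters at 29 bases and the grainyhead letters at 199 bases, S100A2 has AP-1 letters at 52 bases, S100A4 has TATA letters at 31 bases, and the S100A14 window holds none of the 3. For S100A2 there are 2 windows, of which the first is printed. Promoters of 30 of the 33 genes were matched, CRCT1, SPRR2D and SPRR2E being the others. AP-1 letters were present in 16 of the 30, against 8.06% of all 27305 genes with a promoter there, a match in any window of a gene being counted. TATA letters were present in 17 of the 30, against 13% of all these genes, and grainyhead letters in 2, RPTN and S100A9, against 1.85% of all these genes. A match describes the letters only and says nothing of binding.

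Between the lines, the inner stretch of the locus was read in MKN28 and nearly empty in MKN45. From RPTN to S100A7, chr1:152153595-153460701, 21 of the 33 genes lie within 1.31 Mb, and no library of MKN45, control or overexpression, had more than 8 counts for any of them. Their summed counts were 9 to 13 in overexpression and 3 to 4 in MKN45 control libraries. They were 5750 to 9790 in knockdown and 2538 to 6306 in MKN28 control libraries. Most of these reads were of S100A9. Without it the sums were 1081 to 1904 in knockdown and 647 to 1289 in MKN28 control libraries. In all 6 libraries of MKN45, 13 of the 21 were at 0, whereas 9 of the 21 had at least 10 counts in every MKN28 control. SPRR2F, a further SPRR2 gene, and CRNN, the S100-fused protein cornulin, were at 0 in all 12 libraries. On either side of this stretch, 10 of the 12 outer genes averaged at least 10 counts in both control groups. The limits of the stretch were chosen with these counts known, and the same share over all genes was not computed. Nothing is read from this contrast of inner and outer genes.

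**Figure D1:**
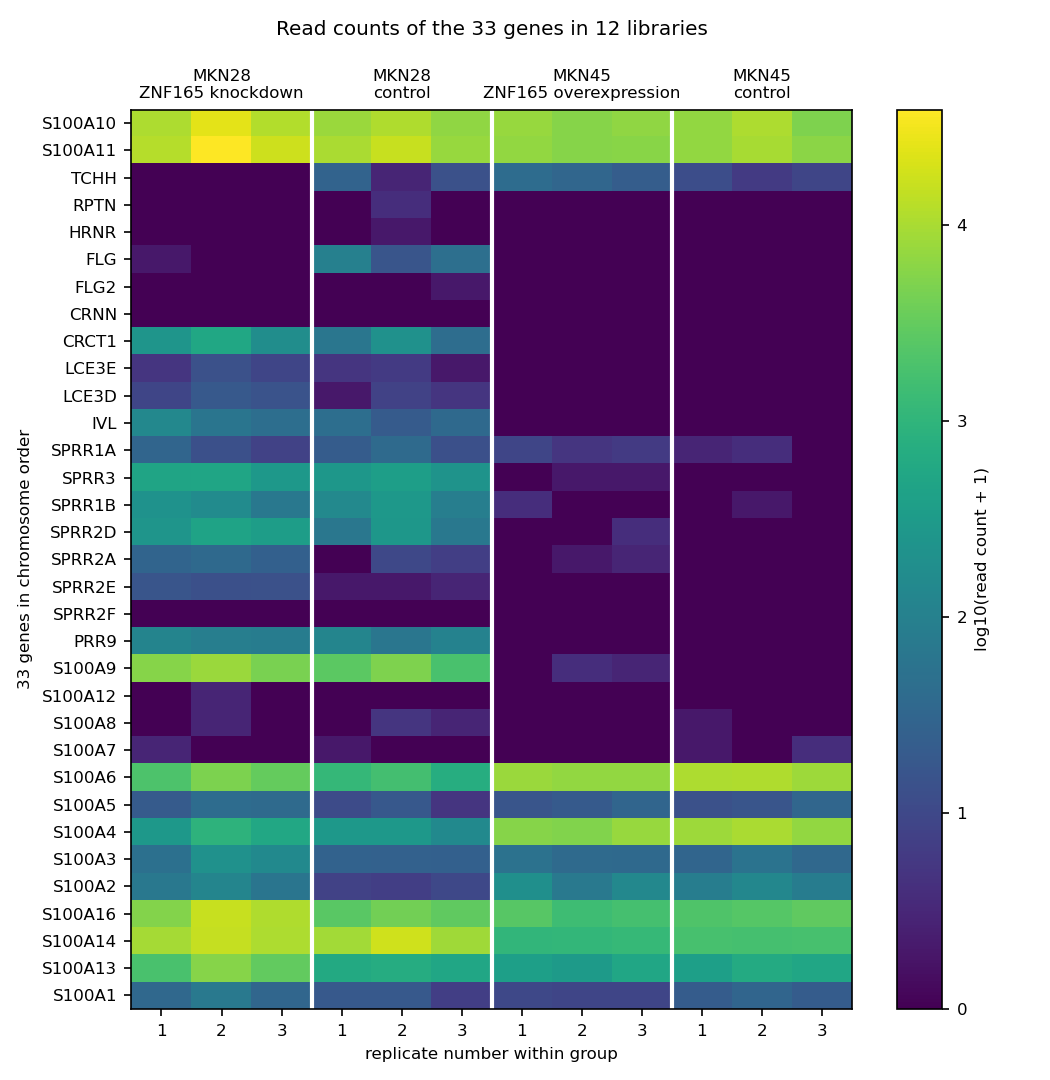
Read counts of the 33 genes (rows, in chromosome order from S100A10 to S100A1) in the 12 libraries (columns, by group and replicate), as log10(count + 1) in colour. The block of 21 genes from RPTN to S100A7 is dark in all 6 MKN45 libraries, where no count exceeds 8, while S100A10, S100A11, S100A6, S100A13, S100A14 and S100A16 at the ends are bright in every library.

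S100A9, a subunit of calprotectin, had 0 counts in each MKN45 control, against 2663, 5017 and 1891 in MKN28 controls. With 3 counts over the group as the floor, this is at least 2700-fold lower in MKN45. Its calprotectin partner S100A8 had 1, 0 and 0 counts in MKN45 controls, against 0, 4 and 2 in MKN28 controls, so MKN28 cells held S100A9 transcripts almost without those of its partner. S100A7 (psoriasin) had at most 3 counts and S100A12 (calgranulin C) at most 2 counts in any of the 12 libraries. S100A9 is also abundant in neutrophils and monocytes, whose 7 markers summed to 35 to 44 counts in MKN28 controls. Among them PTPRC had 0, 3 and 1 counts there, CSF3R had 2, 2 and 0, FCGR3B had 0 in each, CD14 had 3, 0 and 7 and LYZ had 1, 4 and 0. ITGAM had 20, 16 and 30 counts and MPO had 9, 19 and 4 in the same MKN28 controls. In MKN45 controls the same list summed to 1581 to 2342 counts, nearly all of LYZ, which gastric epithelium also expresses. The part of these markers in the S100A9 counts was not tested.

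SPRR3, a small proline-rich precursor of the envelope, had 0 counts in each MKN45 control, against 268, 370 and 230 in MKN28 controls, at least 245-fold lower. SPRR2D had 0 counts in each MKN45 control and 64, 265 and 69 in MKN28 controls, at least 112-fold lower. SPRR1B (cornifin B) had 0, 1 and 0 counts in MKN45 controls, against 142, 283 and 89 in MKN28 controls, and the ratio of the summed levels was 436 with a counting interval of 78.2 to 17200. Its neighbour SPRR1A was lower as well, at 2, 3 and 0 counts in MKN45 controls, against 21, 38 and 12 in MKN28 controls. SPRR2A had 0 counts in each MKN45 control, against 0, 9 and 6 in MKN28 controls, and SPRR2E had 0 in each MKN45 control, against 1, 1 and 2 in MKN28 controls. The SPRR2 genes are near-identical in sequence, so the split of reads among them is uncertain.

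CRCT1, a cysteine-rich protein of the complex, had 0 counts in each MKN45 control and 61, 206 and 42 in MKN28 controls, at least 87.3-fold lower. PRR9, a proline-rich protein, had 0 in each MKN45 control and 120, 62 and 107 in MKN28 controls, at least 81.6-fold lower. IVL had 0 in each MKN45 control and 44, 20 and 36 in MKN28 controls, at least 28.2-fold lower. These 3 genes thus followed SPRR3 in direction, at lower counts. FLG had 0 in each MKN45 control and 97, 15 and 46 in MKN28 controls, at least 44.6-fold lower. LCE3D had 0 in each MKN45 control, against 1, 7 and 4 in MKN28 controls, and LCE3E had 0 in each MKN45 control, against 4, 5 and 1 in MKN28 controls. The other S100-fused genes were near 0 in both lines: RPTN, HRNR and FLG2 had at most 3 counts in any library. TCHH (trichohyalin), which lies outside the empty stretch, was the exception, with 11, 5 and 8 counts in MKN45 controls and 28, 2 and 13 in MKN28 controls, and the groups overlapped.

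Toward the S100A1 end, some genes were higher in MKN45. S100A4, a binder of non-muscle myosin associated with cell motility, had 8072, 10161 and 7041 counts in MKN45 controls, against 280, 274 and 148 in MKN28 controls. Its level was 44.2-fold higher. S100A6 (calcyclin) had 10684, 10819 and 8239 counts in MKN45 controls, against 1144, 1663 and 725 in MKN28 controls, 10.2-fold higher. S100A2, an S100 gene of basal squamous epithelium, had 88, 130 and 85 counts in MKN45 controls, against 7, 6 and 9 in MKN28 controls, 16.7-fold higher. S100A14 went the other way, with 1790, 1741 and 1753 counts in MKN45 controls, against 8941, 17654 and 8608 in MKN28 controls, 5.56-fold lower. The lines overlapped for S100A10 (the annexin A2 partner), S100A11, S100A13, S100A16 and S100A5. S100A3 had 30, 54 and 35 counts in MKN45 controls, against 27, 26 and 24 in MKN28 controls, and S100A1 had 21, 31 and 21 in MKN45 controls, against 18, 18 and 6 in MKN28 controls. Both were higher in every MKN45 control by scaled level. Of 21 members tested with edgeR's quasi-likelihood test at a Benjamini-Hochberg adjusted p under 0.05, 3 were called higher and 10 lower in MKN45, and 8 did not pass. Over all 16088 genes tested, 21.4% were called higher and 20.4% lower. Since the list was chosen with this difference in view, nothing is read from that count.

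**Figure D2:**
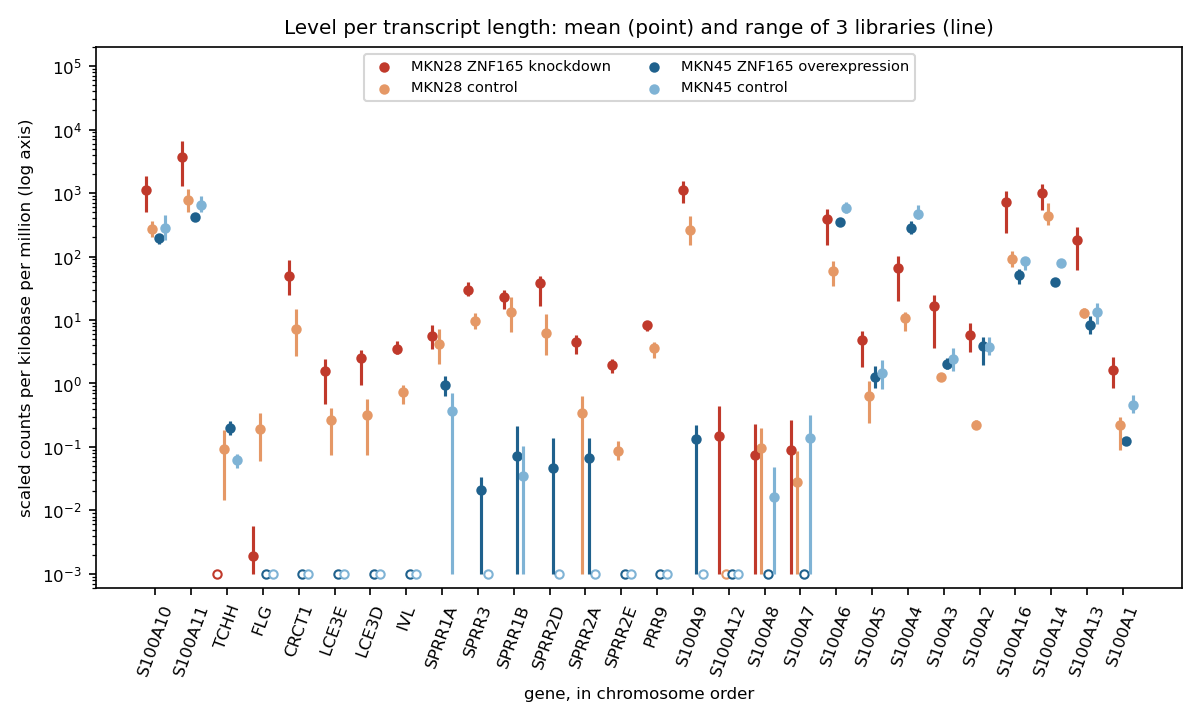
Level of 28 of the genes per length, as TMM-scaled CPM per kilobase of merged exons on a log axis, in chromosome order and by group. Points are means of 3 libraries, lines run over the 3 libraries, and open points at the bottom stand for groups in which all 3 libraries had 0 counts. S100A11 is the highest in both MKN28 groups, and S100A4, S100A6 and S100A11 are the highest in MKN45 controls.

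Per length, the S100 genes at the ends of the locus were its most abundant in MKN28, with S100A9 beside them. In TMM-scaled CPM per kilobase of merged exons, S100A11, a binder of annexin A1, averaged 3730 ± 2630 in knockdown and 784 ± 345 in MKN28 control libraries (SD, n = 3 each). S100A14 averaged 1010 ± 438 in knockdown and 442 ± 221 in MKN28 control libraries. S100A10 averaged 1130 ± 688 in knockdown and 267 ± 86 in MKN28 control libraries, and S100A9 averaged 1130 ± 430 in knockdown and 266 ± 152 in MKN28 control libraries. S100A10 and S100A9, neighbours in the order, did not differ beyond their spread in either group. In MKN28 controls there followed S100A16 at 90 ± 28.8 and S100A6 at 58.1 ± 26.3. After them came SPRR1B at 13.3 ± 8.58, S100A13 at 12.9 ± 2.55, S100A4 at 10.9 ± 3.71 and SPRR3 at 9.58 ± 2.97. From SPRR1B to SPRR3, neighbours in this order differed by less than their SD. FLG stood at 0.191 ± 0.146, so that the level of its transcript per length was low even where it was read. In MKN45 the order of the leading genes was another one. S100A11 averaged 417 ± 47.3 in overexpression and 645 ± 232 in MKN45 control libraries. S100A6 averaged 346 ± 28 in overexpression and 581 ± 127 in MKN45 control libraries, and S100A4 averaged 278 ± 73.9 in overexpression and 473 ± 147 in MKN45 control libraries. These 3 lay within their spread of each other in MKN45 controls. SPRR1A has only 270 annotated bases, and its level per length is therefore uncertain.

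In MKN28, the ZNF165 knockdown went with more reads from most of the expressed genes of the locus. Of the 22 members that passed the filter on low counts, 17 rose, 1 (FLG) fell and 4 did not pass the test, and 11 were too low to be tested. Over all 14939 genes tested, 19.2% were called higher and 21.6% lower, so that 40.8% were called. The median log2 fold change was 2.57 over the 22 members and −0.20 over all genes. In 18 of the 22, every knockdown library lay above every MKN28 control, and in FLG every one lay below. The share of all genes separated in this way was not computed, so nothing is read from that count. Together the 33 genes took 0.325% to 0.655% of all counts in knockdown libraries and 0.173% to 0.309% in MKN28 controls. Of the 6 squamous keratinocyte markers, the 3 that were tested (KRT5, KRT14 and KRT10) were called higher. The others, at low counts, did not rise. TP63 had 0 in each knockdown library, against 1, 1 and 3 in MKN28 controls. DSG3 had 0 in each, against 11, 0 and 2, and KRT1 had 3, 2 and 1, against 2, 4 and 5. Of the 5 simple epithelium markers, 3 were called higher and 1 lower. With the trend removed, as described next, KRT14 and KRT10 were still called and KRT5 was not (log2 fold change 1.09, edgeR adjusted p = 0.118), nor was KRT5 called without MKN28 control replicate 2 or 3 or knockdown replicate 2. The part of these markers in the result was not tested. In such bulk libraries more cells that read a gene and more transcripts in each cell cannot be told apart.

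This shift went with transcript length. Of the 22 tested members, 20 fall in the quartile of genes with the shortest transcripts, of up to 2590 bases, and 16 of these 20 rose. In that quartile 38.7% of all 3719 genes were called higher and the median log2 fold change was 1.09, against −1.48 in the quartile with the longest transcripts. With each library's trend over length and GC content removed, 4 members remained called higher (S100A2, SPRR2E, S100A13 and S100A16) and FLG remained called lower. Over all genes tested in that fit, 17.1% were called higher and 24.3% lower, so the number of higher calls was near the share over all genes. The members' median became 0.51 against −0.28 over all genes. The 13 higher calls that were lost had log2 fold changes of −0.15 to 1.92 in that fit, with edgeR adjusted p from 0.0599 to 0.916. The part of transcript length and GC content in these 13 rises was not tested beyond that fit. With library totals alone as the scale, all genes had a median log2 fold change of −0.92, a shift of over 0.1 from −0.20. On that scale 8 members remained called higher, where 8.77% of all genes were called higher.

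**Figure D3:**
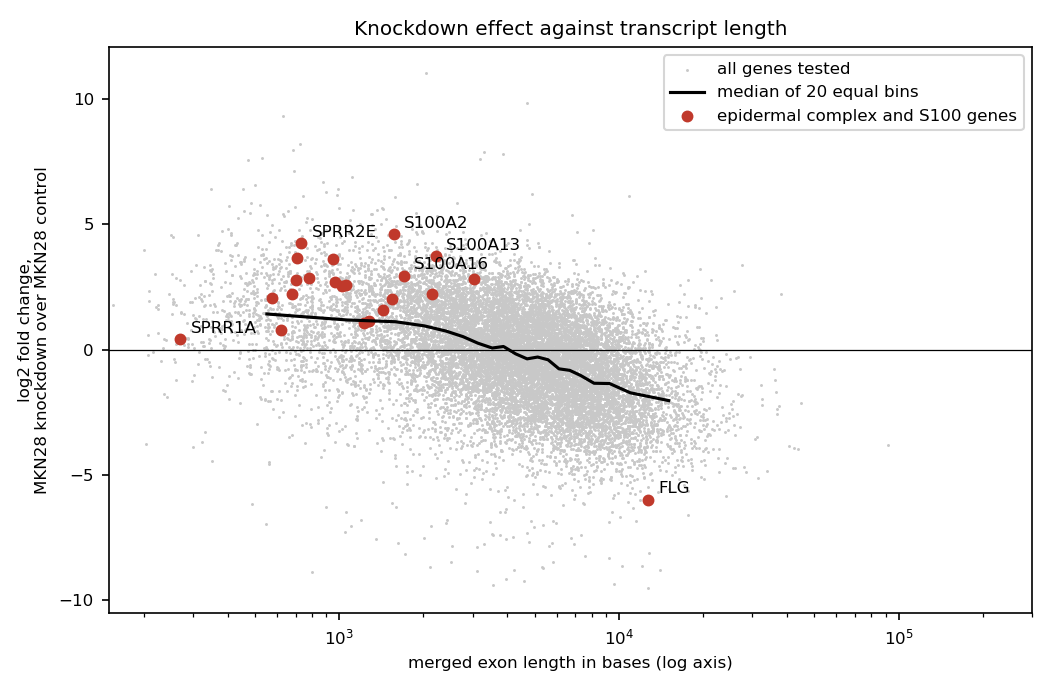
Log2 fold change of knockdown over MKN28 control (vertical axis) against merged exon length in bases (horizontal, log axis). Grey points are all genes tested, the black line is the median of 20 bins of equal numbers of genes, and red points are the 22 tested genes of the locus. Most red points lie at short lengths, above the line, while FLG lies at the long end at −5.98.

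The 5 genes called in the same direction under each of the 15 alternatives run for this comparison, of which 1 leaves a single knockdown library, were S100A2, S100A13, S100A16, SPRR2E and FLG. S100A2 had 69, 121 and 60 counts in knockdown libraries, against 7, 6 and 9 in MKN28 controls. It averaged 7.75 ± 3.84 CPM in knockdown and 0.311 ± 0.0704 CPM in MKN28 control libraries (SD, n = 3 each), 24.3-fold higher, with a log2 fold change of 4.61 (SE 0.667, edgeR adjusted p = 0.00367). With the trend removed it was 2.94 (SE 0.516, edgeR adjusted p = 0.00299). All knockdown libraries lay far above the controls, near the counts of the MKN45 libraries, in which S100A2 is read without any knockdown.

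S100A13, which takes part in the release of FGF1 from cells, had 1885, 5680 and 3036 counts in knockdown libraries, against 609, 687 and 511 in MKN28 controls. Its level was 13.5-fold higher (log2 fold change 3.75, SE 0.613, edgeR adjusted p = 0.0037), and the log2 fold change was 2.14 with the trend removed (edgeR adjusted p = 0.00224). S100A13 shares 235 exonic bases with S100A1 on the opposite strand and 536 with the transcript ENSG00000271853 on its own, and since the strand setting of the counting is not given in the sources used here, reads of the 3 cannot be told apart. S100A16, an S100 protein that lacks calcium binding in its N-terminal EF hand, had 5536, 15793 and 10884 counts in knockdown libraries, against 2583, 4152 and 2886 in MKN28 controls. It was 7.75-fold higher (log2 fold change 2.95, SE 0.61, edgeR adjusted p = 0.00572), and 1.02 on the log2 scale with the trend removed (edgeR adjusted p = 0.0201). SPRR2E, at low counts, had 15, 12 and 13 in knockdown libraries, against 1, 1 and 2 in MKN28 controls, a log2 fold change of 4.25 (SE 0.771, edgeR adjusted p = 0.00417) and 2.83 with the trend removed (edgeR adjusted p = 0.0117). The groups of these genes did not overlap.

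FLG, which encodes profilaggrin and is the longest transcript of the locus, had 1, 0 and 0 counts in knockdown libraries, against 97, 15 and 46 in MKN28 controls. The ratio of MKN28 control to knockdown levels was 76.8, with a counting interval of 13.8 to 3030. The fitted log2 fold change was −5.98 (SE 1.18, edgeR adjusted p = 0.00504) and −5.61 with the trend removed (edgeR adjusted p = 0.0062). FLG shares 704 exonic bases with the antisense gene FLG-AS1, which had at most 7 counts in any library. TCHH, another long transcript, had 0 counts in each knockdown library and 28, 2 and 13 in MKN28 controls, at least 6.97-fold lower at a floor of 3 counts over the group, and did not pass the filter for the test. Both members that went to 0 or near it are thus S100-fused genes with long transcripts.

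**Figure D4:**
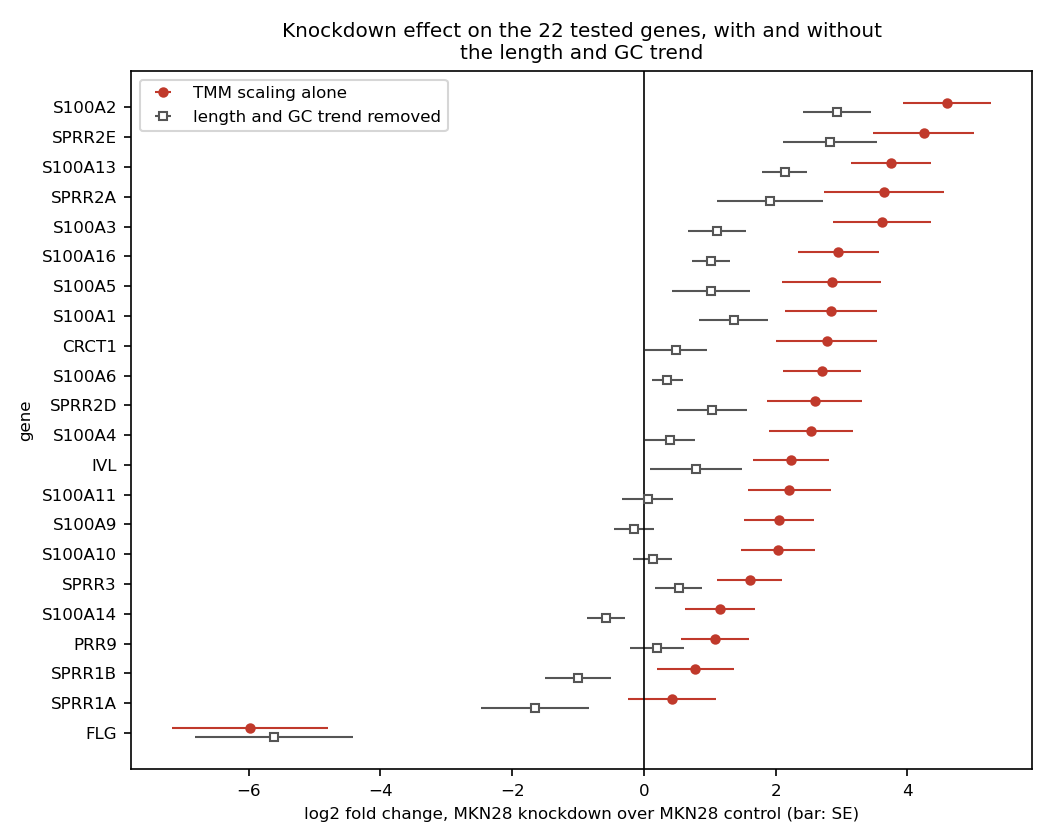
Log2 fold change of knockdown over MKN28 control for the 22 tested genes, ordered by size. Filled red circles are the fit with TMM scaling and open squares the fit with each library's length and GC trend removed, with bars of 1 SE. The squares lie left of the circles for all genes but FLG, and those of S100A2, SPRR2E and S100A13 stay above 2.

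Among the other small proline-rich and envelope genes, SPRR2A had 29, 36 and 25 counts in knockdown libraries, against 0, 9 and 6 in MKN28 controls, with a log2 fold change of 3.65 (SE 0.914, edgeR adjusted p = 0.0115), and 1.92 with the trend removed (edgeR adjusted p = 0.0808). SPRR2D had 244, 455 and 362 counts in knockdown libraries, against 64, 265 and 69 in MKN28 controls. SPRR3 had 482, 497 and 278 counts in knockdown libraries, against 268, 370 and 230 in MKN28 controls. Their log2 fold changes were 2.59 and 1.61, of which 1.04 and 0.53 were left with the trend removed, no longer past the test. SPRR1A, SPRR1B and PRR9 did not pass: SPRR1B had 214, 160 and 68 counts in knockdown libraries, against 142, 283 and 89 in MKN28 controls, and the groups overlapped. SPRR1A had 31, 12 and 7 counts in knockdown libraries, against 21, 38 and 12 in MKN28 controls, and also overlapped. PRR9 had 116, 89 and 85 counts in knockdown libraries, against 120, 62 and 107 in MKN28 controls, and its scaled levels did not overlap (log2 fold change 1.08, and 0.20 with the trend removed). The small proline-rich genes thus gave unlike values: SPRR1A and SPRR1B had log2 fold changes of −1.65 and −1.0 with the trend removed, while SPRR2E was called higher.

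IVL had 139, 59 and 45 counts in knockdown libraries, against 44, 20 and 36 in MKN28 controls, a log2 fold change of 2.23 (edgeR adjusted p = 0.0127) that became 0.79 with the trend removed. CRCT1 had 241, 549 and 176 counts in knockdown libraries, against 61, 206 and 42 in MKN28 controls, with a log2 fold change of 2.78 (edgeR adjusted p = 0.0166) and 0.49 with the trend removed. Neither passed the test with the trend removed. LCE3D had 8, 18 and 14 counts in knockdown libraries, against 1, 7 and 4 in MKN28 controls. LCE3E had 4, 13 and 8 counts in knockdown libraries, against 4, 5 and 1 in MKN28 controls, and neither LCE gene passed the filter.

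Of the S100 genes, S100A3, a gene of the hair cuticle, had 48, 207 and 147 counts in knockdown libraries, against 27, 26 and 24 in MKN28 controls. S100A6 had 2046, 4841 and 3167 counts in knockdown libraries, against 1144, 1663 and 725 in MKN28 controls, and S100A4 had 281, 909 and 560 in knockdown libraries, against 280, 274 and 148 in MKN28 controls. In the raw counts knockdown replicate 1 was close to the controls for S100A4 and low among the knockdown libraries for all 3 genes. The log2 fold changes were 3.62, 2.70 and 2.54, with edgeR adjusted p of 0.00557, 0.00683 and 0.0118, and with the trend removed 1.11, 0.36 and 0.40, none of them past the test. S100A1, best known from heart muscle, had 35, 70 and 32 counts in knockdown libraries, against 18, 18 and 6 in MKN28 controls. S100A5, known from olfactory neurons, had 20, 41 and 38 counts in knockdown libraries, against 10, 17 and 4 in MKN28 controls. Both rose, by 2.84 and 2.86 on the log2 scale, and had 1.37 and 1.015 with the trend removed, not past the test.

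S100A9 had 5619, 7886 and 4669 counts in knockdown libraries, against 2663, 5017 and 1891 in MKN28 controls, a log2 fold change of 2.05 (SE 0.533, edgeR adjusted p = 0.0132). With the trend removed its value was −0.15 (edgeR adjusted p = 0.71). S100A8 had 0, 2 and 0 counts in knockdown libraries, against 0, 4 and 2 in MKN28 controls. The neutrophil and monocyte markers summed to 73 to 127 counts in knockdown and 35 to 44 in MKN28 control libraries, with CD14 and MPO called higher (log2 fold changes 4.72 and 3.06, and 2.74 and 1.79 with the trend removed, both still called, though MPO was not without MKN28 control replicate 1 or 3), FCGR3B at 0 and PTPRC at 1, 0 and 0 counts in knockdown libraries. Their part in the S100A9 result was not tested.

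S100A10 had 10593, 25114 and 11613 counts in knockdown libraries, against 8001, 11153 and 6755 in MKN28 controls. S100A11 had 11985, 38660 and 16991 counts in knockdown libraries, against 10169, 15768 and 7426 in MKN28 controls. Their log2 fold changes were 2.03 and 2.21, and 0.13 and 0.06 with the trend removed. Neither passed the test in that fit. S100A14 had 9401, 15530 and 10397 counts in knockdown libraries, against 8941, 17654 and 8608 in MKN28 controls, and did not pass (log2 fold change 1.16, SE 0.528, edgeR adjusted p = 0.1). Leaving out MKN28 control replicate 1, or replicate 3, brought the number of members called higher to 7 (SPRR2A, SPRR2E, S100A2, S100A3, S100A6, S100A13 and S100A16). Leaving out knockdown replicates 2 and 3, whose descriptions name other genes, brought it to 5. That fit holds 1 knockdown library, which is assumed to vary like the controls.

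In MKN45, ZNF165 overexpression went with no call among the members. Of the 12 that passed the filter, 0 were called higher and 0 lower by edgeR at an adjusted p under 0.05, where 1.13% of all 15833 genes were called, 0.935% higher and 0.196% lower. At an unadjusted p under 0.05 there were 7 of the 12, 1 higher and 6 lower, against 26.8% of all genes. DESeq2 called 1 higher (TCHH) and 3 lower (S100A1, S100A6 and S100A14), where it called 11.6% of all genes. The median log2 fold change was −0.64 over the 12 members and −0.00 over all genes, and 10 of the 12 had values below 0. With the length and GC trend removed the members' median was −0.16, against 0.04 over all genes, and S100A3 and S100A5 turned positive.

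TCHH had 40, 32 and 22 counts in overexpression libraries, against 11, 5 and 8 in MKN45 controls, with a log2 fold change of 1.67 (SE 0.4, edgeR adjusted p = 0.0645). S100A1 had 9, 8 and 8 counts in overexpression libraries, against 21, 31 and 21 in MKN45 controls, with −1.86 (SE 0.42, edgeR adjusted p = 0.0578). In both genes the groups did not overlap. S100A14 had 1043, 1072 and 1161 counts in overexpression libraries, against 1790, 1741 and 1753 in MKN45 controls, with −0.99 (SE 0.215, edgeR adjusted p = 0.0544). S100A6 had 7982, 7109 and 7099 counts in overexpression libraries, against 10684, 10819 and 8239 in MKN45 controls. None of these genes passed the threshold after adjustment. S100A4 had 5709, 5331 and 7589 counts in overexpression libraries, against 8072, 10161 and 7041 in MKN45 controls, and S100A11 had 6965, 5779 and 5969 in overexpression libraries, against 6934, 9574 and 6255 in MKN45 controls. By scaled level, S100A1, S100A4, S100A6, S100A11 and S100A14 lay below every MKN45 control and TCHH above every one. How large a share of all genes separated like this was not computed, so nothing is read from the number of such members. With the trend removed, TCHH was called higher and S100A1 lower.

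S100A2 had 188, 72 and 136 counts in overexpression libraries, against 88, 130 and 85 in MKN45 controls (log2 fold change 0.06, SE 0.411). S100A3, S100A5, S100A10, S100A13 and S100A16 had log2 fold changes of −0.25, −0.20, −0.53, −0.66 and −0.72, and overlapping groups. The empty stretch stayed near 0 with ZNF165 added: S100A9 had 0, 3 and 2 counts in overexpression libraries, SPRR1A 8, 4 and 5, SPRR1B 3, 0 and 0, SPRR2D 0, 0 and 3, and SPRR3 0, 1 and 1. CRCT1, PRR9, IVL and FLG were at 0 in each of them. None of these counts passed the filter for the test.

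**Figure D5:**
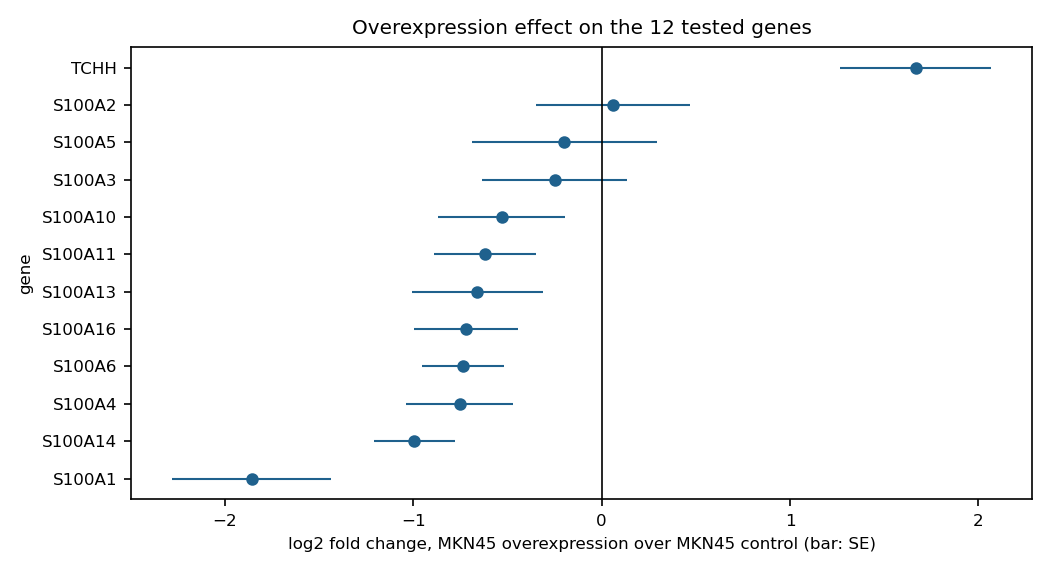
Log2 fold change of overexpression over MKN45 control for the 12 tested genes, with bars of 1 SE. TCHH lies highest at 1.67, S100A1 lowest at −1.86, and none passed the test after adjustment over all genes.

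Whether the response to knockdown in MKN28 differed from that to overexpression in MKN45 was tested in a fit of all 12 libraries. Knockdown was done only in MKN28 and overexpression only in MKN45. The line and the kind, direction and size of the ZNF165 change therefore cannot be told apart in this test. Because ZNF165 was lowered in MKN28 and raised in MKN45, the log2 fold changes of overexpression and knockdown were added. This sum is 0 when the responses are of equal size and opposite sign. It departs from 0 for responses of the same sign and for opposite responses of unlike size. Of 23 members tested, 6 were called, all with sums above 0, where 17.5% of all 17266 genes were called, 8.09% above 0 and 9.38% below. They were S100A2 (4.72), S100A9 (5.63), S100A3 (3.42), S100A13 (3.13), S100A16 (2.28) and S100A6 (2.00). For S100A9 the sum rests on 0, 3 and 2 counts in overexpression libraries and 0 in each MKN45 control. S100A2, S100A3 and S100A13 remained called with the trend removed, and S100A2 and S100A13 in each of the fits that left out 1 library, which called 2 to 11 members in all. For members at 0 in MKN45 the fit gave no usable error, so the lack of a call says nothing about them.

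The rest of the pathway was measured through lists of genes chosen with earlier results of these data known. A further 29 genes of the epidermal differentiation complex that the 33 do not include were in the table and none reached the test in any comparison, 14 being at 0 in all 12 libraries and the highest count being 17. In 15 of the 29 there was a count in some library of MKN28, and in 2 in some library of MKN45. Of the other S100 genes, S100P rose in knockdown cells, at 358.4 ± 140.1 CPM against 102 ± 65 CPM in MKN28 controls (SD, n = 3 each), with a log2 fold change of 1.81 (edgeR adjusted p = 0.0273). With the trend removed it was 0.23 and not called (edgeR adjusted p = 0.64), nor was it called without MKN28 control replicate 1 or 3 or without knockdown replicate 2 or 3. Of 20 tested genes that flank the locus in 1q21, 7 rose and 3 fell after the knockdown, with a median of 0.81. With the trend removed 4 were called higher and 4 lower. Beside this list and those below, 19.2% of all genes tested were called higher and 21.6% lower after the knockdown. With the trend removed these shares were 17.1% and 24.3%.

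Cornification genes elsewhere in the genome moved in both directions after the knockdown. Of 30 tested, 11 rose and 7 fell, with a median log2 fold change of 0.82, and 6 and 10 were called with the trend removed, with a median of −0.28. Among those that rose were KLK5, a protease of corneocyte shedding, with a log2 fold change of 3.81, the keratins KRT78 with 3.48 and KRT10 with 3.23, and SERPINB2, an inhibitor of plasminogen activators, with 2.88. Among those that fell were ABCA12, the lipid transporter of lamellar granules, with −5.21, SPINK5, an inhibitor of kallikreins, with −4.57, desmoplakin (DSP) with −3.28, and the gap junction gene GJB2 with −2.70. These 8 genes stayed called in the same direction with the trend removed. The SERPINB2 value rests on knockdown replicate 1: it had 2896, 116 and 133 counts in knockdown libraries, against 209, 248 and 223 in MKN28 controls, and without that replicate the log2 fold change was 0.60 and not called. With any 1 of the MKN28 controls left out SERPINB2 was not called either. Leaving out knockdown replicate 2 moved SPINK5 to −6.78 and replicate 1 to −3.91, and leaving out MKN28 control replicate 2 moved KLK5 to 4.49, all still called.

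Of 21 tested regulators of squamous differentiation, 5 rose and 4 fell after the knockdown, with a median of −0.42, while 4 were called higher and 9 lower, with a median of −0.62, with the trend removed. On the log2 scale FOSL1, a subunit of AP-1, rose by 3.92 and had 1.80 with the trend removed, and the repressor OVOL1 rose by 2.64 and the ETS factor ELF3 by 2.26. JUN rose by 1.67 and had 0.52 with the trend removed, no longer past the test. JUN was also not called with any 1 library left out other than knockdown replicate 1. NOTCH1, whose signal starts keratinocyte differentiation, fell by 3.15, GRHL2 fell by 3.03, GRHL1 fell by 2.90, and POU2F3 fell by 2.86. OVOL1, ELF3 and these 4 were still called with the trend removed, at 1.43, 1.85, −3.20, −2.89, −1.51 and −2.51 in the order named. Without knockdown replicate 1, GRHL2 had −4.15 and GRHL1 −3.84, and without knockdown replicate 2 FOSL1 had 3.30, all still called. ELF3 was not called without MKN28 control replicate 1 or 3, and POU2F3 was called only without MKN28 control replicate 3 or knockdown replicate 1 (−3.57) among the fits with 1 library left out. Of 11 tested S100 partners and receptors, 1 rose, ANXA11 by 1.45, and 1, AHNAK, fell by 3.25. With the trend removed 3 were called higher and 4 lower, ANXA11 (1.59) and AHNAK (−2.00) among them. Of the fits with 1 library left out, that without knockdown replicate 1 alone still called ANXA11, and each of the 6 called AHNAK. AHNAK is a very large protein bound by the complex of S100A10 and annexin A2. After overexpression, 1 of 25 tested cornification genes was called, and 0 of 20 regulators, 0 of 11 partners and 0 of 20 flanking genes. It was DSG3, a desmosomal cadherin of squamous epithelium, with 14, 27 and 21 counts in overexpression libraries, against 1, 0 and 0 in MKN45 controls (edgeR adjusted p = 0.0293). It was not called with any 1 of the overexpression libraries left out or without MKN45 control replicate 3, and without MKN45 control replicate 1 the other controls were at 0.

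Between the lines, and again as a description, cornification genes elsewhere were mostly lower in MKN45, as the inner stretch of the locus was. Of 27 tested, 17 were called lower and 3 higher, with a median of −2.24. Beside this list and those below, 20.4% of all genes tested were called lower and 21.4% higher. KRT13 averaged 0.323 CPM in MKN45 controls and 39.1 CPM in MKN28 controls, and SCEL averaged 0.188 CPM in MKN45 controls and 17.97 CPM in MKN28 controls. SERPINB2 was at 0 in each MKN45 control and averaged 12.3 CPM in MKN28 controls. Of 23 tested regulators, 12 were called lower and 3 higher in MKN45. ZNF750, an activator of late epidermal genes, was at 0 in each MKN45 control and averaged 45.8 CPM in MKN28 controls. GRHL3, a grainyhead-like factor, averaged 0.37 CPM in MKN45 controls and 40.5 CPM in MKN28 controls, and GATA3 averaged 0.505 CPM in MKN45 controls and 65.2 CPM in MKN28 controls. TP63, the master factor of basal keratinocytes, was the reverse, with 3.30 CPM in MKN45 controls and 0.0903 CPM in MKN28 controls, as was SOX2, with 5.64 CPM in MKN45 controls and 0.162 CPM in MKN28 controls. Of 12 tested S100 partners and receptors, 6 were called lower and 1, TLR4, higher in MKN45. The genes that flank the locus in 1q21 were mostly not called, with 3 of 20 higher and 1 lower, RAB13 being the highest of the 3 at 89.9 CPM in MKN45 controls and 2.7 CPM in MKN28 controls.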

How the data were processed

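The authors deposited a table of raw read counts for Ensembl genes, with a column for each library, per the file headers. The submitters' processing notes name HISAT2, which aligns spliced reads, and StringTie, which assembles transcripts, without versions. How reads were counted, the strand setting, the build and the annotation are not given in the sources, so coordinates and lengths are those of GENCODE 29 (GRCh38, 50111 of 50868 identifiers matched).

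Each comparison was fitted on its 6 libraries over all genes with edgeR 4.0.16 (R 4.3.3): TMM factors, filterByExpr with a minimum count of 10 and total of 15, the quasi-likelihood test, and Benjamini-Hochberg adjustment over all genes tested, with a threshold of 0.05. Levels are CPM scaled by TMM factors. Each SE was computed back from the test, as the absolute log2 fold change over the square root of its F statistic. Alternatives were DESeq2 1.42.0, other scalings and filters, libraries left out, a replicate block, and offsets that remove each library's trend over length and GC (splines with 4 degrees of freedom). Library totals set the CPM floors given, and totals scaled by TMM factors set the fold bounds and counting intervals. Replicate pairs differed far beyond counting error, with a chi-square per degree of freedom of 19.5 to 417.

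The members and lists were chosen with earlier results of these data known. Members could all be named; from each other list, up to 4 called genes per direction with the largest change. DSG3 and the markers CD14 and MPO follow the same rule. Deviations of same-numbered controls of the 2 lines had r = 0.238, 0.472 and 0.265 across genes. A pair of unlike number, replicates 1 and 3, had 0.241, and in the other order 0.122. Same-numbered libraries had 0.25, 0.376 and −0.306 in the knockdown comparison. In the overexpression comparison they had −0.0628, −0.0507 and 0.0595. Whether replicate numbers pair libraries in any comparison was not tested. Scripts were tested on simulated data.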

Additional observations from a re-analysis of the deposited data

Results flagged for a closer look

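For 6 genes the responses to knockdown in MKN28 and to overexpression in MKN45 were not equal and opposite. Responses of the same sign are called in this test as well. The test was that of the summed log2 fold changes of overexpression and knockdown in the fit of all 12 libraries. Line and kind of change cannot be told apart in it. The sums were 4.72 for S100A2 (SE 0.741, edgeR adjusted p = 0.00338), 3.42 for S100A3 (SE 0.833, edgeR adjusted p = 0.0164), 3.13 for S100A13 (SE 0.703, edgeR adjusted p = 0.012), 2.28 for S100A16 (SE 0.674, edgeR adjusted p = 0.0338), 2.00 for S100A6 (SE 0.643, edgeR adjusted p = 0.0457) and 5.63 for S100A9 (SE 1.73, edgeR adjusted p = 0.0426). For S100A9 the MKN45 libraries hold at most 3 counts each. For the other 5 the knockdown log2 fold change was larger in size than that of overexpression. With the length and GC trend removed the sums were 3.70, 1.71, 2.13, 0.96, 0.37 and 4.33 in the same order, and the last 3 no longer passed.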

How the results depend on the processing

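Against 17 members higher and 1 lower after the knockdown, library totals alone gave 8 higher, the removed length and GC trend 4, the replicate block with the trend removed 5, and leaving out knockdown replicates 2 and 3 together, with 1 knockdown library assumed to vary like the controls, 5. Without the filter on low counts, or in the fit of all 12 libraries, 2 were lower (FLG and TCHH). The replicate block alone left 17 and 1. With the trend removed, 17.1% of all genes were called higher and 24.3% lower. Leaving out single libraries gave 7 to 21 higher and 1 to 2 lower, with 7 without MKN28 control replicate 1 or 3 and 2 lower without knockdown replicate 1, knockdown replicate 3 or MKN28 control replicate 2. After overexpression, against 0 and 0, DESeq2 gave 1 higher and 3 lower, the removed trend 1 and 1, no filter 2 lower, the replicate block 0 and 0, and libraries left out 0 higher and 0 to 1 lower, the 1 being S100A14 without MKN45 control replicate 1 or 2. Between the lines, where the choice of the list bears on the count and nothing is read from it, it was 3 higher and 10 lower with the replicate block and with each library left out.

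For the summed responses, against 6, DESeq2 called 10 members, the removed trend 3, the replicate block 5, and the block with the trend removed 3. Leaving out libraries gave 2 to 11: 11 without knockdown replicate 1, 9 without MKN28 control replicate 2, 2 without MKN28 control replicate 1, MKN45 control replicate 1 or MKN45 control replicate 3, and 3 without knockdown replicates 2 or 3, MKN28 control replicate 3, or overexpression replicates 2 or 3.

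Signs turned in the knockdown for SPRR1A (−0.25 with library totals, −1.65 with the trend removed, −2.16 with block and trend), SPRR1B (−1.0 with the trend removed, −1.059 with block and trend), S100A9 (−0.15 and −0.14), S100A14 (−0.58 and −0.57) and S100A11 (−0.061 with block and trend). In the overexpression fits without the trend, S100A3 became 0.28 and, with the block, 0.27, and S100A5 0.21 and 0.26. Between the lines S100A10 became −0.035 with library totals, −0.29 with the trend removed and −0.33 with block and trend, and S100A13 −0.072, −0.31 and −0.33. With 1 library left out, ranges that span 0 were −0.26 to 0.42 for S100A2, −0.51 to 0.17 for S100A3 and −0.61 to 0.30 for S100A5 after overexpression. Between the lines they were −0.41 to 0.41 for S100A10, −0.64 to 0.15 for S100A11, −0.28 to 0.35 for S100A13, −0.24 to 0.22 for S100A16 and −1.04 to 0.33 for TCHH. The cause of these changes was not tested. Members under about 10 counts mostly did not reach the test. Fits with other filters or fewer libraries called some of them, such as LCE3D and TCHH after the knockdown. Leaving out libraries for the called genes of the pathway lists was added after seeing the data.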
